A study of Mus musculus with 3 samples.

Results

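The transcripts of the SMN complex, the machine that builds spliceosomal small nuclear ribonucleoproteins (snRNPs), were examined for their recovery with the RNA-binding protein YTHDF2 in mouse embryonic stem cells (ESCs). RNA immunoprecipitation sequencing (RIP-seq) compares the RNA recovered with an antibody against a protein (IP) with an input library of the same cells. The members were 9 genes of the 49997 in the count table, namely Smn1, Gemin2, Ddx20 (the gene of Gemin3), Gemin4, Gemin5, Gemin6, Gemin7, Gemin8 and Strap. The set was chosen by the ratio of IP to input, because Gemin7 stood out in it, so this ratio is given for the members as a description with no test. All 9 were found in the table and all 9 passed the filter on low counts.

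There were 3 libraries, 1 input and 2 YTHDF2 IP (replicates 1 and 2, called IP1 and IP2), all from E14 ESCs treated for 24 h with doxycycline (Dox). Both groups thus share the Dox treatment and, in the cell system of the study, a Dox-inducible Dux transgene and a tdTomato reporter under the Mervl promoter, which marks cells that resemble the early cleavage embryo. Cells without Dox and an IP with a control antibody were not analysed here, and nothing in the labels says that the IP libraries came from separate cultures, so the spread between them may be technical. The libraries held 36986994 counts (input), 35259827 (IP1) and 35888743 (IP2). Markers fitted the labelled cell type, where 8 pluripotency genes summed to 6507 CPM (counts scaled to a common library total) in the input, against 2.30 CPM over 6 fibroblast genes, of which Col3a1 and Dcn were at 0, and 8.22 CPM over 4 endoderm genes. Markers of the cleavage-like state that Dux induces (6 genes) summed to 1916 CPM in the input, 3086 in IP1 and 3076 in IP2. Most of that rise was in Zscan4c (522, 1245 and 1222 CPM), while Usp17la was nearly level (276, 285 and 297 CPM). The pluripotency sum was also higher in IP, at 8007 and 7911 CPM.

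YTHDF2 reads N6-methyladenosine (m6A) in RNA and is known for delivering such transcripts to decay. The SMN complex works in the cytoplasm, where it closes a ring of Sm proteins around each spliceosomal snRNA before the particle is imported into the nucleus. SMN, the protein lost in spinal muscular atrophy, forms the oligomeric core with Gemin2, and the remaining Gemins and Strap attach to it, bring the snRNA or bind Sm proteins.

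Sequence around the stop codon is shown first, since m6A is known to be dense there and commonly lies in the sequence GGACT, with the A as the modified base. The letters GGACT were searched on the transcript strand of the RefSeq Select mRNA of each gene (build GRCm38.p6, the assembly of mm10). Of the 9 members, 8 held at least 1 match, compared with 91.1% of 15188 tested coding genes, and Gemin2 held none. Within 200 bases of the stop codon on either side, 4 of 9 members had a match, compared with 39.9% of those coding genes. The stop-proximal match of each of these 4 is printed below from 5′ to 3′ with GGACT in capitals, in the order of their ratio of IP to input.
Gemin7: gccttcctGGACTtccaaagc
Gemin6: tgcacaaaGGACTctctgtgt
Strap: atgttcatGGACTaaacaagc
Smn1: tcatcagtGGACTcttggcta
The Gemin7 window lies at chr7:19565180-19565200 on the minus strand, in the 3′ untranslated region (3′UTR), with its A 89 bases after the stop codon. The Gemin6 window, at chr17:80227975-80227995 on the plus strand, is the only one of these in coding sequence, with its A at position −128 counted from the last base of the stop codon. Both remaining windows lie on plus strands in 3′UTRs, that of Strap at chr6:137750640-137750660 and 38 bases after the stop codon, and that of Smn1 at chr13:100137446-100137466 and 79 bases after it. These 4 genes include the 3 members with the highest ratios of IP to input and also the member with the lowest. Matches farther from the stop codon were counted in Ddx20 (5, all in coding sequence), Gemin4 (4), Gemin5 (3), Gemin8 (2) and Strap (2). A match shows these letters in the reference and not a methylated base.

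In the input, members spanned a wide range of levels per length, given as CPM per kilobase of exon with the 95% Poisson interval, which covers counting error only. Strap was the most abundant at 79.1 CPM per kb (77.3 to 80.9). Smn1 at 40.5 (38.8 to 42.1) and Gemin7 at 36.8 (34.6 to 39.1) came next, and their intervals overlapped. Ddx20 at 24.4, Gemin2 at 21.6, Gemin4 at 19.2, Gemin6 at 15.3, Gemin5 at 11.7 and Gemin8 at 5.28 CPM per kb followed. Read mates were counted singly, so these intervals are too narrow, and the order of neighbours as close as Ddx20, Gemin2 and Gemin4 is not firm. Before IP, Gemin7 was thus among the more abundant members, close to Smn1 and below Strap.

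**Figure D1:**
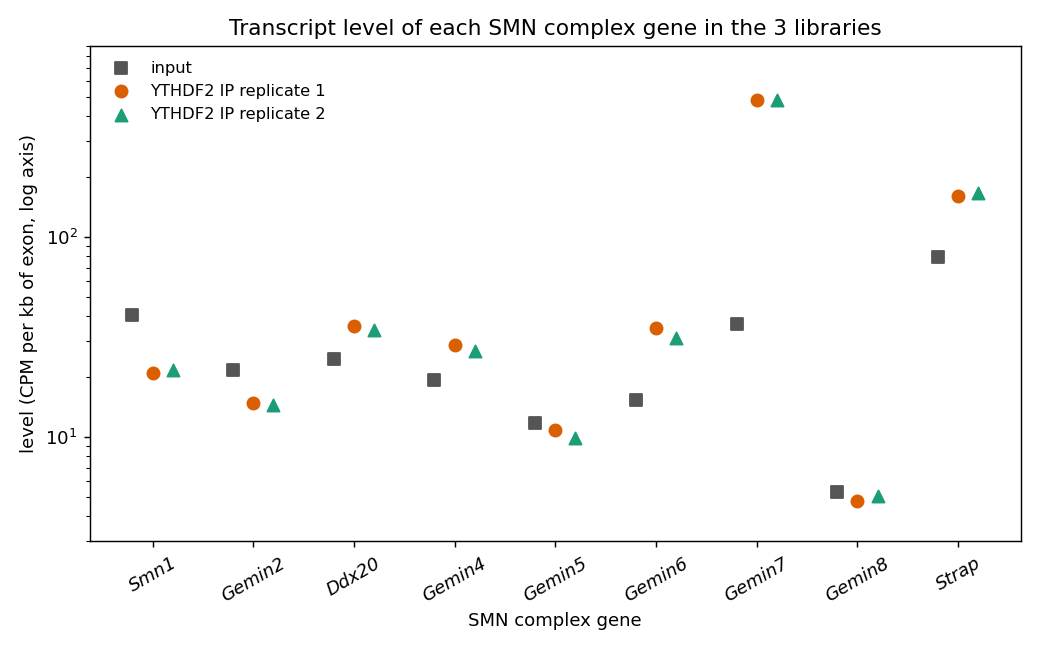
Level of each SMN complex transcript in the input and in both YTHDF2 IP libraries, in CPM per kb of exon on a log axis, 1 point per library. Gemin7 moved from an input level of 36.8 to 482 (IP1) and 484 (IP2), while the points of Gemin8 lay between 4.78 and 5.28.

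The transcripts that encode the core of the complex, Smn1 and Gemin2, were less abundant in the IP than in the input. Smn1 encodes SMN itself, whose Tudor domain binds methylated arginines of Sm proteins, and lies on the plus strand of chromosome 13 (100123205 to 100137699). It had 2294 input counts, 1126 counts in IP1 and 1189 in IP2, or 40.5, 20.8 and 21.6 CPM per kb. Both IP libraries were well below the input and close to each other. The fitted log2 fold change was −1.03 ± 0.096 (SE, 1 input and 2 IP libraries), a level 2.04-fold lower in IP, and 17.2% of tested genes had a lower value. Smn1 and Gemin5 are also annotated on alternate scaffolds, so levels per length use their main chromosome exons, and 0 of the 203 genes annotated only on such scaffolds had a count. Gemin2 (chromosome 12, 59013391 to 59028470, plus strand), which binds SMN and holds the Sm proteins during assembly, had 1270 input counts against 827 in IP1 and 821 in IP2. Its ratio was lower in IP in both replicates, though less so than that of Smn1, with a log2 fold change of −0.66 ± 0.116 (1.58-fold lower). Per length, Gemin2 stood at 0.534 of the Smn1 level in the input and at 0.708 and 0.666 in IP1 and IP2.

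The helicase Ddx20 and its binding partner Gemin4 behaved alike, on the opposite side of the input. Ddx20 (chromosome 3, 105678270 to 105687788, minus strand), a DEAD-box RNA helicase, had 2747 input counts, 3832 counts in IP1 and 3751 in IP2. Gemin4 (chromosome 11, 76210571 to 76217572, minus strand), which associates with the complex through Ddx20, had 2447, 3493 and 3325. Each was modestly higher in both IP libraries, by a log2 fold change of 0.43 ± 0.078 for Ddx20 and of 0.44 ± 0.081 for Gemin4, or 1.34-fold and 1.36-fold. The per-length ratio of Gemin4 to Ddx20 was 0.785 in the input, 0.804 in IP1 and 0.782 in IP2, so both transcripts kept nearly the same proportion. Gemin5, the WD-repeat protein that recognises the snRNA, lay below the input instead. This gene (chromosome 11, 58120001 to 58168554, minus strand) had 2692 input counts, 2364 counts in IP1 and 2214 in IP2, a log2 fold change of −0.27 ± 0.084 (1.21-fold lower).

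Gemin6 and Gemin7 are Sm-fold proteins that form a heterodimer within the complex, and Gemin7 held the highest ratio of the members. Gemin7 (chromosome 7, 19564949 to 19573343, minus strand) had 1038 input counts, 12954 counts in IP1 and 13248 in IP2. Both IP libraries were more than 10 times above the input and nearly equal, with single-library log2 ratios of 3.61 and 3.62. Its fitted log2 fold change was 3.62 ± 0.080 (12.3-fold), higher than that of 98.4% of tested genes and in place 317 of 19601. It stood in place 2 of the 9987 genes that averaged 10 CPM or more. Gemin6 (chromosome 17, 80207504 to 80228497, plus strand) had 785 input counts against 1710 in IP1 and 1551 in IP2, a log2 fold change of 1.01 ± 0.116 (2.02-fold). The IP replicates lay on either side of 2-fold, with log2 ratios of 1.09 in IP1 and 0.93 in IP2. The row of its pseudogene Gemin6-ps held 3 counts in the input and 0 in both IP libraries. The proportion of these paired transcripts therefore differed between input and IP, with a per-length ratio of Gemin7 to Gemin6 of 2.40 in the input, 13.8 in IP1 and 15.5 in IP2.

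The outer members Gemin8 and Strap differed from each other. Gemin8 (chromosome X, 166170454 to 166190512, plus strand) links the Gemin6 and Gemin7 pair to SMN and had the fewest counts, 385 in the input, 332 in IP1 and 359 in IP2. Its log2 fold change of −0.20 ± 0.186 was close to its standard error, although both IP libraries were below the input. Strap (chromosome 6, 137735082 to 137751930, plus strand), a WD-repeat protein also known as Unrip, had 7733 input counts against 14949 in IP1 and 15648 in IP2. Its log2 fold change of 0.94 ± 0.058 (1.92-fold) was close to that of Gemin6 and fell just short of 2-fold in each IP library. The per-length ratio of Strap to Gemin8 was 15.0 in the input, 33.6 in IP1 and 32.5 in IP2.

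**Figure D2:**
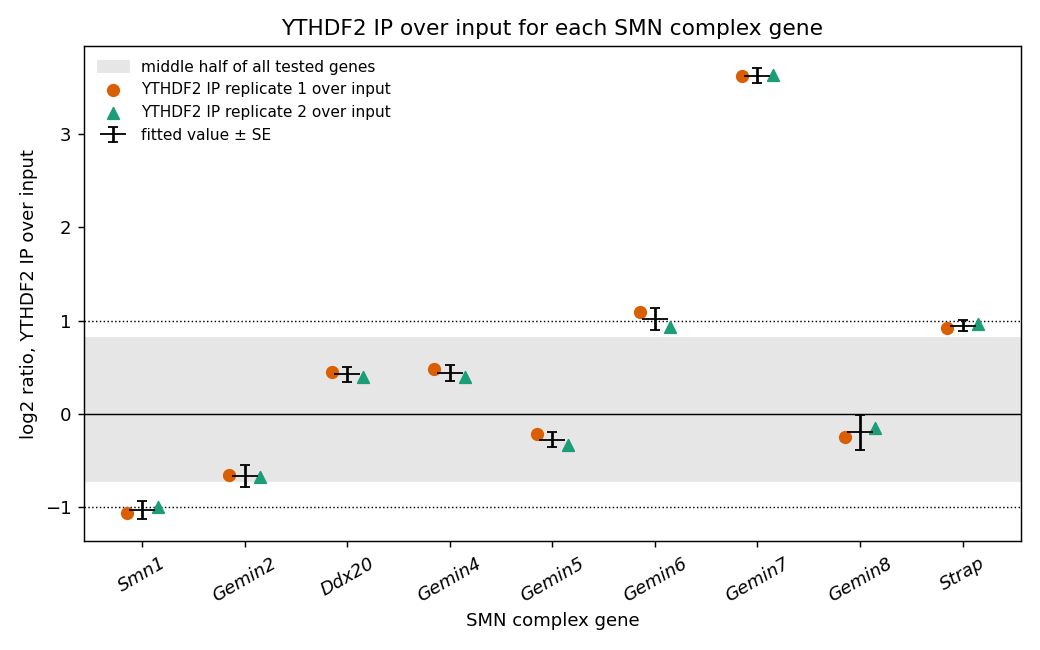
Log2 ratio of IP to input for each member, with 1 point for each IP library the fitted value ± SE, dotted lines at 2-fold and a grey band between the quartiles of all tested genes (−0.72 and 0.81). The fitted values ran from −1.03 for Smn1 to 3.62 for Gemin7, and the 2 IP points of every member lay within 0.16 of each other.

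Across the 9 genes, 5 were higher and 4 were lower than the input in both IP libraries, with a median log2 fold change of 0.43, or 0.11 over the other 8 without Gemin7. Of all 19601 tested genes, 8666 were higher and 8872 lower in both IP libraries, so such counts are common. Their median was 0.0065 (quartiles −0.72 and 0.81). A gene is called enriched here at an adjusted p under 0.05 (edgeR quasi-likelihood test, Benjamini-Hochberg adjustment) and over 2-fold in IP, and depleted under the same rule below the input. By that rule 2 members were enriched (Gemin7 and Gemin6) beside 15.2% of all tested genes, and 1 was depleted (Smn1) beside 14%. As these genes were set by this contrast, nothing is read from those counts. Just inside the 2-fold limit were Gemin6 (1.01) and Smn1 (−1.03), and just outside on the enriched side was Strap (0.94), while the next member on the depleted side, Gemin2 (−0.66), lay farther off. Gemin7 alone was beyond 2-fold in each IP library taken by itself, since Gemin6 and Smn1 passed that limit in IP1 but not in IP2 (0.93 and −0.998). Without IP1, neither Gemin6 (0.93) nor Smn1 was beyond 2-fold, and with scaling by the total count Smn1 (−0.93) was not called and Strap (1.04) was. With a fixed dispersion of 0.1 neither Gemin6 nor Smn1 was called, and with the GC trend removed Strap (1.28) was.

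The order of the ratios is described beside the range of the IP replicates, which leaves out the error of the single input. Gemin6 and Strap, Gemin4 and Ddx20, and Gemin8 and Gemin5 were neighbours whose IP values overlapped, so their order is not resolved. The IP values of the other neighbours did not overlap, with fitted differences that included Gemin7 and Gemin6 (2.60 on the log2 scale), Gemin5 and Gemin2 (0.39) and Gemin2 and Smn1 (0.36). With the GC trend removed, Gemin5 (−0.45) was below Gemin2 (−0.43), so that order rests on the setting. The members differed by 4.64 on the log2 scale from lowest to highest, whereas the 2 IP libraries differed for any member by 0.011 to 0.16.

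The make-up of the recovered SMN complex transcripts differed from that of the input. Summed over the 9 genes, the level was 254 CPM per kb in the input and 792 in both IP libraries, and without Gemin7 it was 217, 311 and 308. Most of the rise without Gemin7 was in Strap, and 4 of those 8 genes were lower in both IP libraries. Gemin7 made up 14.5% of the summed level in the input and 60.8% and 61.1% in IP1 and IP2. Smn1 went the other way, from 15.9% to 2.63% and 2.73%. Strap, the largest contributor to the input at 31.2%, made up 20.2% and 20.8% in IP, although its own level was higher there (79.1, 160 and 165 CPM per kb), since the shares move with Gemin7. The per-length ratio of Gemin7 to Smn1 was 0.909 in the input, 23.1 in IP1 and 22.4 in IP2.

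**Figure D3:**
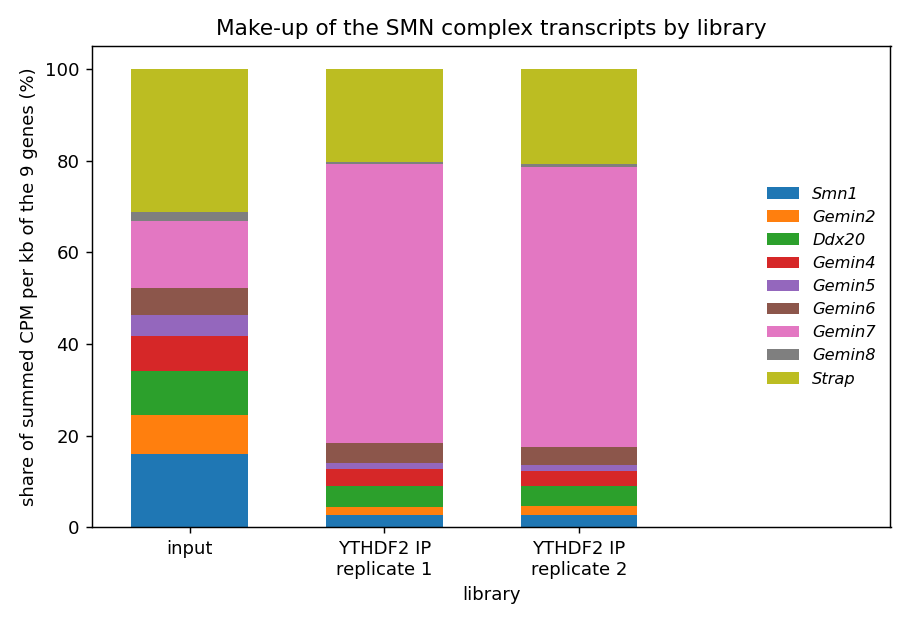
Share of each member in the summed level (CPM per kb) of the 9 SMN complex transcripts, as stacked bars for the input and both IP libraries. Gemin7 took 14.5% of the input bar and 60.8% and 61.1% of the IP bars.

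Gene structure, which played no part in choosing the set, differed widely among the members. Gemin7 has the shortest exonic sequence, 763 bases, shorter than in all but 2.58% of tested coding genes, and a single exon holds 95.4% of it along with the whole coding sequence of 390 bases. Gemin4 is also dominated by 1 exon (97.2% of 3448 bases). Smn1 spreads 1533 bases over 11 exons, with 20.8% in the longest, and its 7.18 exons per kb exceed those of 95.7% of tested coding genes. Gemin2 has 10 exons in 1590 bases (6.29 per kb) and Gemin5 has 28 exons in 6229 bases (4.50 per kb). The longest exon holds 52.2% of Strap, 54.8% of Gemin6, 64.4% of Gemin8 and 47.5% of Ddx20. GC content ran from 44.4% in Strap to 55.6% in Gemin7.

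Members with a larger share of sequence in 1 exon tended to have higher ratios of IP to input. Spearman's rho across the 9 genes was 0.75 for the share of the longest exon, and 0.71 over 8 genes without Gemin7. For exons per kb it was −0.68, and −0.74 without Gemin7. Over the 15188 tested coding genes the same coefficients were 0.19 and −0.28. Over the 39 tested genes of the wider pathway, described below, the share of the longest exon gave 0.39. GC content gave 0.12 across the members, −0.26 without Gemin7 and 0.36 over the coding genes. GGACT per kb gave 0.30, 0.095 and 0.16. The 2 features named first had the largest coefficients of those compared across the members. Number of exons gave −0.66 across the members and −0.54 without Gemin7, and coding length gave −0.38 and −0.12. Exonic length gave −0.28 and 0.024, and 3′UTR length −0.10 and −0.071. These are descriptions across genes that share the same 3 libraries, and genes are not independent replicates.

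**Figure D4:**
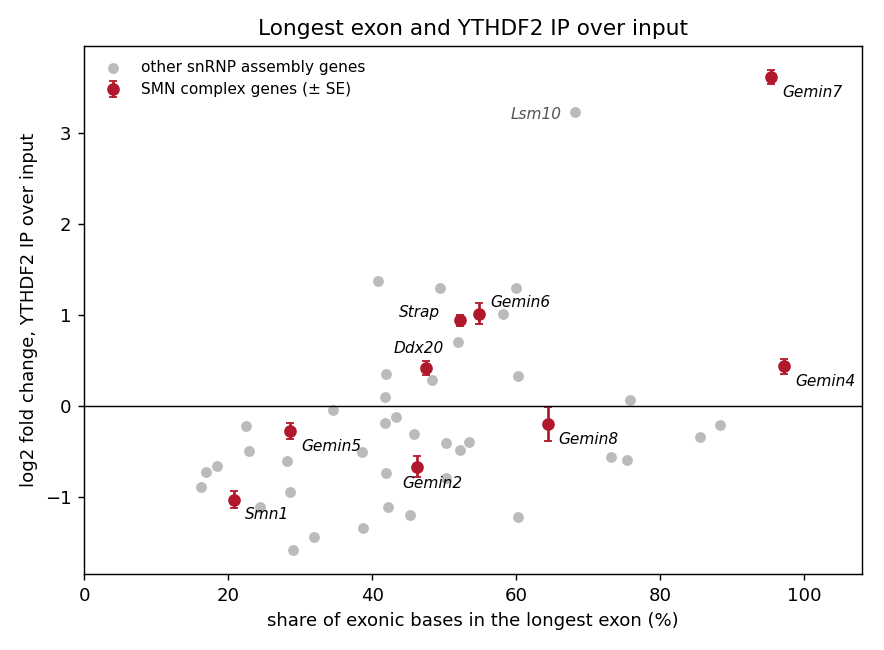
Log2 fold change of IP over input for each member against the percentage of its exonic bases in the longest exon. Smn1 lies lowest at 20.8% and Gemin7 highest at 95.4%, while Gemin4, at 97.2%, has a log2 fold change of 0.44.

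Gemin7 was set beside coding genes of like structure, a comparison chosen after its values were seen. The 145 tested coding genes under 1000 exonic bases with over 90% in 1 exon had a median log2 fold change of 0.17 (quartiles −0.55 and 1.23), and 20% of them were called enriched. Gemin7 was above 96.6% of that group. The 1127 tested genes with 1 coding exon had a median of 0.82 (quartiles 0.02 and 1.62), and 36.7% were called enriched, compared with 15.4% of all tested coding genes. Gemin7 was above 97.0% of these, a place that follows from its choice for a high ratio.

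Genes flanking Gemin7 had much smaller ratios. Ppp1r37, which begins 244 bases away on the same strand, had 1749 input counts, 2707 counts in IP1 and 2716 in IP2. Its log2 fold change was 0.59 ± 0.088 (edgeR adjusted p = 1.27e-08). Zfp296, 3943 bases away on the other side, had 3552 input counts against 5081 and 5252 after IP, a log2 fold change of 0.50 ± 0.072 (edgeR adjusted p = 4.38e-09). Both were higher in IP but under 2-fold, and no exon of another gene overlapped one of Gemin7.

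The 5 genes averaging 10 CPM or more whose pair of single-library log2 ratios lay nearest to that of Gemin7 were Sdhaf1, Tmem121, Dnajc30, Gna15 and Ninj1. Nearest was Sdhaf1, an assembly factor of succinate dehydrogenase, at a distance of 0.058, with 671 input counts against 8082 in IP1 and 8727 in IP2. The log2 fold changes were 3.61 for Sdhaf1, 3.61 for Tmem121, 3.55 for Dnajc30, 3.48 for Gna15 and 3.47 for Ninj1. Sdhaf1 and Dnajc30 consist of 1 exon, Tmem121 has 92.5% of its exonic bases in 1 exon, and Gna15 and Ninj1 have 8 and 4 exons. All 5 had a higher GC content than Gemin7, between 58.3% and 64.4%.

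The pathway beyond the complex was followed in 41 genes listed by role, of which 39 were tested. Of these, 9 were higher and 24 lower in IP at an edgeR adjusted p under 0.05, beside 28.5% higher and 30.1% lower over all tested genes. With the 2-fold limit added, 5 were called enriched and 7 depleted, close to the shares over all tested genes (15.2% and 14%). Their median log2 fold change was −0.40. The U1 and U2 snRNP proteins were lower at that adjusted p in all 5 cases (median −0.79). The Sm core proteins, which form the ring that the complex assembles, were lower in both IP libraries in 6 of 6 tested genes (4 past the adjusted p, 2 depleted, median −0.61), and so were 8872 of all 19601 tested genes. Snrpn and Snrpf had too few counts to test.

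**Figure D5:**
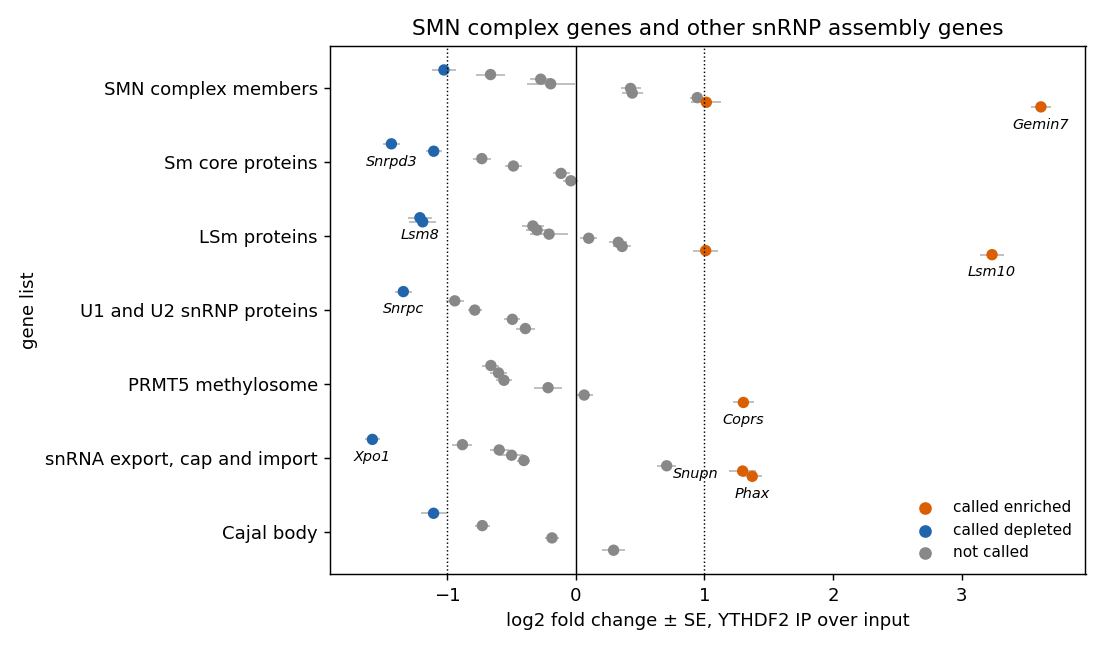
Log2 fold change of IP over input ± SE for the SMN complex members and the 39 tested genes of the other lists, 1 row per list, with dotted lines at 2-fold and colours for called genes. Gemin7 and Lsm10 lie apart on the right at 3.62 and 3.24, and all tested Sm core and U1 and U2 snRNP genes lie left of 0.

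Among the Sm proteins, Snrpd3 had the lowest value, with 9733 input counts, 3588 counts in IP1 and 3813 in IP2. Its log2 fold change was −1.44 ± 0.064 (edgeR adjusted p = 3.3e-33). Snrpb was also depleted, at −1.11 ± 0.061 (edgeR adjusted p = 1.08e-27). Snrpc, a protein of the U1 particle, was the depleted gene of its list, with 7665 input counts against 3010 and 3206 after IP, a log2 fold change of −1.34 ± 0.067 (edgeR adjusted p = 4.49e-30).

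The LSm proteins, which form Sm-like rings, had 2 enriched and 2 depleted genes of 10, near the shares over all tested genes given above, and a median of −0.05. Lsm10, which takes the place of an Sm protein in the U7 snRNP of histone mRNA processing, had 652 input counts, 6242 counts in IP1 and 6404 in IP2. Both IP libraries were above the single input, as in 8666 of all 19601 tested genes. The log2 fold change of 3.24 ± 0.095 (edgeR adjusted p = 1.5e-44) was the one in these lists nearest to Gemin7. Lsm10 exceeds the median GC content of coding genes (56.0% against 50.4%), but so do the depleted Snrpb (56.8%) and Snrpc (55.0%). Like Gemin7, Lsm10 has 1 coding exon. Its U7 partner Lsm11 had 648 input counts against 567 and 586 after IP, a log2 fold change of −0.21 ± 0.147 (edgeR adjusted p = 0.222). The U7 pair thus differed by 3.45 on the log2 scale, beside 2.60 for Gemin7 and Gemin6. Lsm1, of the cytoplasmic decay ring, stood at 1.01 ± 0.097, just past 2-fold and under it in IP2 (0.95), while Lsm8, of the nuclear ring, was depleted at −1.21 ± 0.090 with 2919, 1341 and 1247 counts.

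For the steps before and after ring assembly, 1 of 6 genes of the PRMT5 methylosome was enriched and 0 depleted. Of 8 snRNA export, cap and import genes 2 were enriched and 1 depleted, and of 4 Cajal body genes 0 and 1. Over all tested genes the shares were 15.2% and 14%, and nothing is read from these small counts. Coprs, a cofactor of the arginine methyltransferase PRMT5, was the called gene of the methylosome list, with 1661 input counts, 4224 counts in IP1 and 4203 in IP2. Its log2 fold change was 1.30 ± 0.084 (edgeR adjusted p = 7.41e-24). Phax, the adaptor for snRNA export, had 2118 input counts against 5658 and 5613 after IP, a log2 fold change of 1.37 ± 0.078 (edgeR adjusted p = 5.61e-27). The exportin it works with, Xpo1, was depleted instead, with 13797 input counts, 4853 counts in IP1 and 4614 in IP2. Its log2 fold change was −1.58 ± 0.060 (edgeR adjusted p = 1.24e-37), which set Phax and Xpo1 apart by 2.95. With the GC trend removed they stood at 1.22 and −1.01. Coil, the marker protein of Cajal bodies, had 2037 counts against 988 and 956, a log2 fold change of −1.11 ± 0.101 (edgeR adjusted p = 3.18e-16). With a fixed dispersion of 0.1, Lsm10, Snrpd3 and Xpo1 were the only genes of these lists still called. With the GC trend removed the call of Lsm8 was lost, while the number of these genes called depleted rose from 7 to 8.

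All these values rest on 1 input library, so the spread between input replicates was not measured. The fitted errors assume that it equals that of the IP libraries. The values are relative to the library rather than absolute amounts bound by YTHDF2. Strand was not used in counting, and Gemin5 shares 4.40% of its exonic bases with the antisense gene Gm33350 and Gemin4 shares 2.12% with LOC108167850, while no exon of the other 7 members overlapped another gene.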

How the data were processed

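RIP-seq libraries of E14 ESCs (1 input, 2 YTHDF2 IP) took their groups from the sample titles. By the methods of the study, RNA was recovered with anti-YTHDF2 from a lysate, whereas the labels describe an IP of total RNA. The deposited values are raw counts per gene, which the authors made with HISAT2 2.2.1 (mm10) and, per the file headers, featureCounts 2.0.3, without use of strand. Mates were counted singly, so intervals and p-values are too narrow. The authors used DESeq2 1.40.2.

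Counts were tested in R 4.3.3 with edgeR 4.0.16 (filterByExpr, TMM, robust quasi-likelihood F test), which left 19601 genes, with Benjamini-Hochberg adjustment over all of them. The 1 residual degree of freedom came from the IP replicates. The common dispersion that edgeR fitted equals a coefficient of variation of 7.33% beyond counting error. TMM factors were 0.957, 1.02 and 1.02. Single-library ratios used 0.5 added counts, and 3 counts equal 0.0811 to 0.0851 CPM. The fit was tested on simulated data. Members and gene lists were chosen with earlier results of these data known. Named genes were all members, the called genes with the highest and lowest ratio of each list, the 5 genes most like Gemin7, its neighbours and genes overlapping a member. Snrpb, Lsm1 and Lsm11 were added after their values were seen. Sequence and structure came from RefSeq on GRCm38.p6. Alternatives were DESeq2 (1.42.0) size factors and Wald test, total count scaling, no filter, halved counts, a fixed dispersion of 0.1, removal of the GC trend, the longest annotated mRNA and leaving out each IP replicate.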

Additional observations from a re-analysis of the deposited data

How the results depend on the processing

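All 81 member values under the 9 alternatives with such values kept their sign. With a fixed dispersion of 0.1, 1 member was called enriched (Gemin7) and 0 depleted, as were 1 and 2 of the partner genes and 1577 and 1531 of all genes. Total count scaling left 0 members depleted and 3 enriched and gave medians of 0.52 for members, −0.31 for partners and 0.10 for all genes, a shift of 0.0959. Removal of the GC trend gave medians of 0.26, −0.33 and −0.042, with Gemin7 at 3.30 and 3 members enriched, and Lsm8 (−0.66) was then not called. The all-gene median was 0.016 without the filter. Leaving out an IP replicate gave 1 to 2 members enriched and 0 to 1 depleted, on fold alone, and an all-gene median from −0.014 to −0.016. With the longest annotated mRNA of each gene, the members' median GC content was 48.4% and the median GGACT per kb was 1.01, beside 48.7% and 1.13. The causes were not tested. No paired analysis was possible because no replicate number ties an IP library to the input. Depth limits Gemin8 most.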
